A study of Mus musculus with 16 samples.

Results

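The genes described here encode the proteins of the cytosolic ribosome, read in CA1, a subfield of the mouse hippocampus. They were chosen by symbol alone. A gene was a member if its symbol was Rps or Rpl followed by a number, with the usual suffixes for copies, or was Rplp0, Rplp1, Rplp2 or Rpsa. The rule found 85 members among the 17986 genes listed in both environments. They comprised 31 genes of the small subunit, 43 of the large subunit, 3 of the large subunit's stalk and 8 paralogs, which are related copies named after a parent gene. Of the 85, 82 passed a filter of at least 1 FPKM in at least 2 libraries. FPKM are fragments per kilobase of transcript, scaled to the mapped fragments of the library. The other 3 were paralogs at or near 0, with Rpl3l at most at 0.26, Rpl39l at 0.22 and Rpl32l at 0.1 FPKM.

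The mice were males on a C57Bl6 background, aged 3 to 6 months, and were labelled either wild type or N3 -/-, that is, deficient in Neil3, a DNA glycosylase of base excision repair. The labels restrict the deficiency to no cell type. Home cage mice had no intervention. Per the protocol text, trained mice explored an open field 50 cm wide for 20 min per day over 1 week, with death 20 min after the final session. That text does not separate the exploration groups from a further learning condition. Unperfused frozen brains were cut at 8 µm and CA1 was laser-dissected, so every cell type of the dissected tissue contributed RNA. Each genotype label had 2 libraries from the home cage and 3 from exploration, 10 in all. The 6 samples of the learning condition were not analysed here.

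Neil3 went against the labels. In the wild-type-labelled libraries it was listed at 0 to 0.05 FPKM, and in those labelled N3 -/- at 8.35 to 15.22 FPKM. The groups are therefore called WT-labelled and KO-labelled. Each environment stood in a separate block of the deposited values, so exploration and block cannot be told apart, nor is it known whether both were normalized together. The 18S ribosomal RNA gene Rn18s moved with the blocks, at 1715 to 2398 FPKM in the home cage libraries and 5.69 to 10.6 FPKM in the exploration libraries. The CA1 pyramidal marker sum was 641 to 780 FPKM and the sum of 4 dentate markers at most 0.96 FPKM. The tissue thus carried the CA1 markers of its label, but markers of other subfields were present too. CA2 markers summed to 96.5 to 150 FPKM, of which Rgs14 alone held 94.1 to 127 FPKM, and CA3 markers to 18.2 to 70.7 FPKM. The spacing of low values corresponded to an estimated 18780000 to 20060000 fragments per library, and the tested member with the fewest fragments in a library stood for an estimated 90.2 to 299 of them.

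A eukaryotic ribosome joins a small subunit, which reads the mRNA, to a large subunit, which forms the peptide bond. Each ribosomal protein is needed in about equal number, and their mRNAs are among the most abundant in a cell. Most of these mRNAs begin with a C and a run of pyrimidines, the 5′ terminal oligopyrimidine motif (TOP), through which TOR kinase and the protein LARP1 control their translation. In neurons, phosphorylation of Rps6 is a common readout of recent activity, and ribosomal protein mRNAs are also found in dendrites and axons.

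The start sites of 8 members are shown to set the annotated start beside the pyrimidine run, in a set that spans members that rose much and members that rose little. The windows are from RefSeq on GRCm38.p6, 40 bases before and 20 after the annotated start, on the strand of the gene. Capitals mark the longest run of C and T near the start.
Rps6: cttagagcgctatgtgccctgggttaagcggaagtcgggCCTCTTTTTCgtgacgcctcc
Rps18: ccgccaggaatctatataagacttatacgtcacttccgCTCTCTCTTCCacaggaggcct
Rps27: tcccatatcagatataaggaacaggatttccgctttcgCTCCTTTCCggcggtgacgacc
Rps27l: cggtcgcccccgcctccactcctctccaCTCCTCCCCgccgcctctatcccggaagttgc
Rpl22l1: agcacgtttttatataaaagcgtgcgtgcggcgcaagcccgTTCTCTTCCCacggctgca
Rpl35: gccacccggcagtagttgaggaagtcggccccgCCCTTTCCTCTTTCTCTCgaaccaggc
Rps26: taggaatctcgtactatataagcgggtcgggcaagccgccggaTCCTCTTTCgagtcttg
Rps10: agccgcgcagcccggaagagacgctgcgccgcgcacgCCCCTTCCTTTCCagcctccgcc
These windows lie at chr4:86857348-86857407 on the minus strand for Rps6, chr17:33955646-33955705 (minus) for Rps18, chr3:90213629-90213688 (minus) for Rps27 and chr9:66946046-66946105 (plus) for Rps27l. Those of Rpl22l1, Rpl35, Rps26 and Rps10 lie at chr3:28805468-28805527 (plus), chr2:39005112-39005171 (minus), chr10:128626487-128626546 (minus) and chr17:27635225-27635284 (minus). In 5 of the 8 the run crosses the annotated start. In Rps27l it ends before the start, and in Rpl22l1 and Rps26 it begins just after it. The start shown for Rps27l lies inside the gene, whose span begins at chr9:66944624, and not at its outer end as for the others. The Rps27l run is therefore not comparable with the others. Of the members, 64 had a promoter in the RefSeq table, 61 of them tested. A run of at least 8 bases, a C followed by C or T only, stood on the gene's strand within 20 bases before and 30 after a start of 54.1% of these 61. The share was 18.1% of other tested genes and 17.0% of all 27025 genes in the table. CTTTCC, a common start of TOP mRNAs, occurred in the same stretch of 18.0% of members, 2.61% of other tested genes and 2.83% of all genes. CCGGAAG, the core bound by ETS factors such as GABP, occurred on either strand of the 300-base promoter in 41.0%, 20.2% and 9.93%, and AAGATGG, the core bound by YY1, in 16.4%, 8.54% and 7.28%. A match is a description of these letters and not a site. It did not sort the members by their exploration change: the median log2 change was 0.47 over the 33 members with the pyrimidine run and 0.43 over the 28 without it.

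Ribosomal protein mRNAs were among the most abundant of CA1. Mean levels of the 82 tested members ran from 17.9 to 769 FPKM with a median of 266, and 76 were at 100 FPKM or more. The highest were Rplp1, an acidic protein of the stalk that recruits elongation factors, at 769 FPKM, Rpl41, among the smallest ribosomal proteins, at 743 FPKM, and Rps27, a zinc-finger protein of the small subunit, at 666 FPKM. The lowest were Rpl7l1, a distant relative of Rpl7, at 17.9 FPKM, Rps27l at 22.3 FPKM and Rps15a at 23.7 FPKM. Transcripts of the tested members were short, with a median length of 814.5 nt against 2903 nt over all tested genes. Rps15a, with 5179 nt, and Rps20, with 3706 nt and a mean of 24.5 FPKM, have the longest transcripts of the family, as means over their matched GENCODE transcripts. As FPKM divide by length, their low rank may depend on the lengths used for the deposited values. Those lengths are not known here, and this was not tested.

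The family's share of all FPKM was higher in the exploration libraries. It was 4.35% and 4.35% in the WT-labelled and 5.27% and 4.51% in the KO-labelled home cage libraries. After exploration it was 5.87%, 5.71% and 5.55% in the WT-labelled and 6.67%, 6.09% and 5.75% in the KO-labelled libraries. Every exploration library thus lay above every home cage library. The ratio of summed small-subunit to large-subunit FPKM stayed between 0.675 and 0.718. In bulk tissue, fewer cells of a type and less RNA per cell cannot be told apart.

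In 2 libraries nearly the whole family was high. KO-labelled home cage library 1 held the highest home cage value for 81 of 82 members, and KO-labelled exploration library 1 the highest exploration value for 75 of 82. The median deviation of members from their own mean over the 4 groups was 0.02 (log2) in the first of these, against -0.32 to -0.28 in the other home cage libraries. In the second it was 0.44, against 0.11 to 0.23 in the other exploration libraries. Over all tested genes the same median lay between -0.05 and 0.03 in every library. Counts and medians of the family are given without 1 or both of these 2 libraries where stated. Changes of single genes are mostly given with both.

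**Figure D1:**
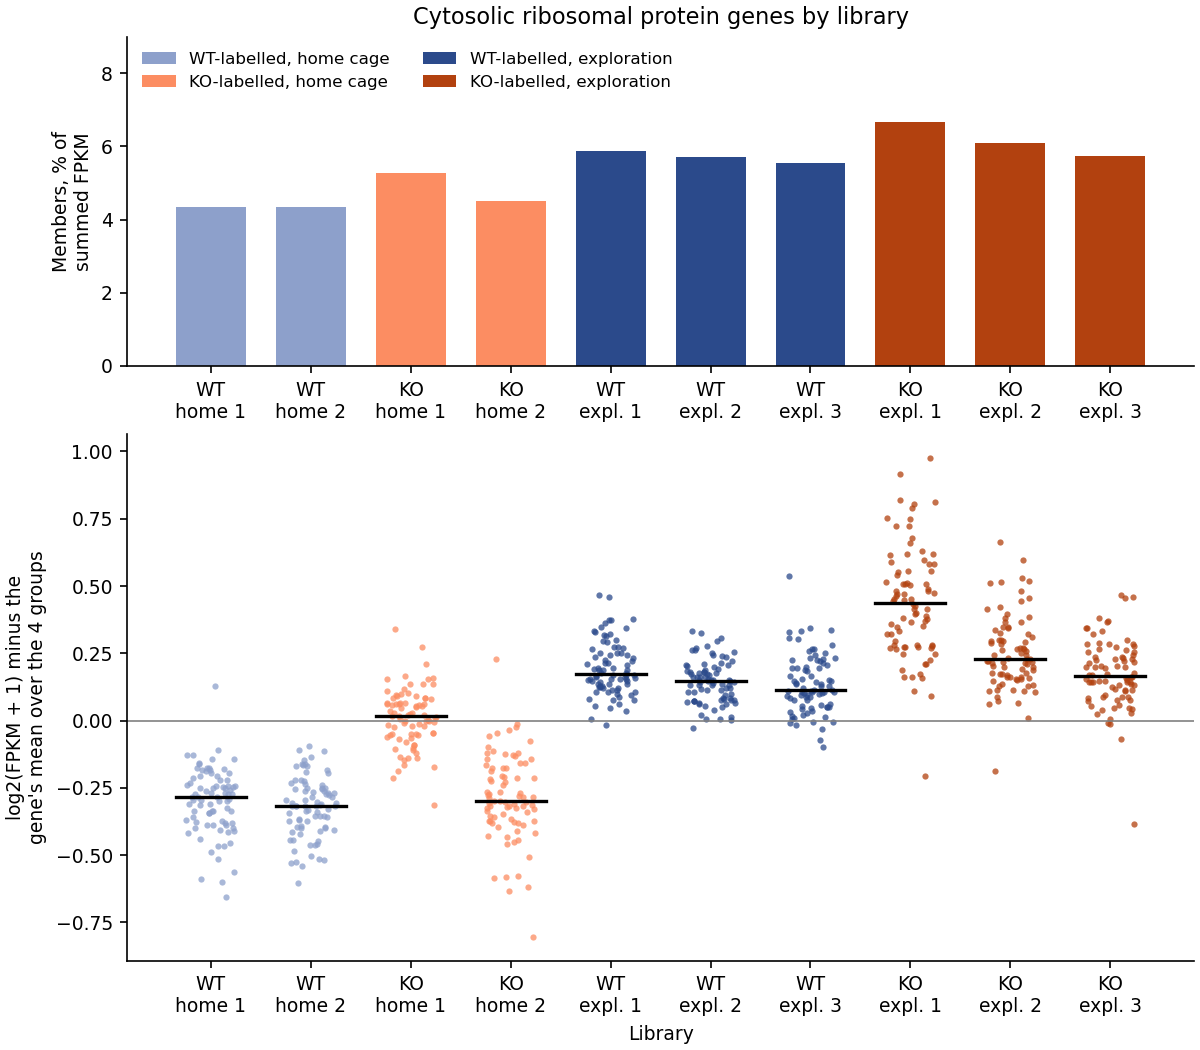
Upper panel: summed FPKM of the 85 members as a percent of all FPKM, 1 bar per library. Lower panel: log2(FPKM + 1) of each of 82 tested members minus that gene's mean over the 4 group means, with a black line at the library's median; WT and KO are genotype labels. The 6 exploration libraries lie above the 4 home cage libraries in the upper panel, and KO-labelled library 1 is the highest of its environment in both panels.

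Exploration against home cage was the comparison in which most of the family changed. Averaged over both labels, 76 of 82 members rose and none fell (limma on log2(FPKM + 1), Benjamini-Hochberg adjusted p under 0.05 over 11892 genes). Over all tested genes 31.9% were called, 12.6% higher and 19.2% lower. The median log2 change of members was 0.42, or 1.34-fold, against -0.03 over all tested genes. For 54 of 82 members every exploration library lay above every home cage library, which held for 6.49% of all tested genes. No member had the opposite pattern, which 10.4% of all genes showed. Of the 76 calls, 65 held when each library in turn was left out. With both high KO-labelled libraries left out, the median was 0.46.

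Within the WT-labelled libraries 54 of 82 members rose and none fell, where 6.31% of all tested genes were called, 2.02% higher and 4.29% lower. The median log2 change was 0.44. These calls rest on few libraries, and leaving out 1 of the 2 WT-labelled home cage libraries leaves 1 in that group. Without WT-labelled exploration library 1, 2 or 3 there were 14, 23 and 30 calls among members. The share of all tested genes called in the same fits is not given here. A loss particular to the members thus cannot be told from a loss across all genes. Rps18 was the 1 member called with any library left out. The median change stayed positive in each of these fits. Within the WT label, marker sums of other cell types also lay higher in the exploration libraries, without overlap: astrocyte markers went from 124 to 135 FPKM to 153 to 196 FPKM (4 of 6 genes apart), oligodendrocyte markers from 137 to 164 FPKM to 197 to 365 FPKM (6 of 6) and microglia markers from 45.5 to 49 FPKM to 59.5 to 74.1 FPKM (6 of 7). Endothelial markers went from 20.6 to 21.2 FPKM to 21.7 to 28 FPKM (2 of 5), interneuron markers from 176 to 179 FPKM to 246 to 291 FPKM (6 of 7) and blood markers from 94.9 to 154 FPKM to 228 to 308 FPKM (5 of 5). Within the KO-labelled libraries 58 members rose and 1, Rps4l, fell, where 28.6% of all tested genes were called, 12.0% higher and 16.6% lower. The median was 0.42. Leaving out KO-labelled library 1 of the home cage gave a median of 0.59, and leaving out library 2 gave 0.26. With each library left out in turn, 17 of the 59 calls held. In the KO-labelled libraries the astrocyte, microglia and endothelial sums overlapped between the environments, at 199 to 231 and 184 to 215 FPKM for astrocytes. The oligodendrocyte sum went from 188 to 225 FPKM to 232 to 265 FPKM (2 of 6 genes apart). Other sums also rose without overlap. CA3 markers went from 18.2 to 26.9 FPKM to 44.5 to 70.7 FPKM (3 of 5 higher, 1 lower). Blood markers went from 125 to 149 FPKM to 160 to 291 FPKM (4 of 5). Interneuron markers went from 185 to 193 FPKM to 211 to 258 FPKM (1 of 7). The CA2 sum was higher too (3 of 4). The CA1 sum overlapped, with 4 of its 6 genes lower and 1 higher. In the WT-labelled libraries the CA1, CA2 and CA3 sums overlapped. The share of all tested genes without overlap in these comparisons of 3 with 2 libraries was not computed. No marker of these lists was at 0 throughout, and the part of these cells in the family's change was not tested.

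The 2 labelled genotypes share no library in these comparisons, so their responses can be set side by side. Of the 82 members, 47 were called in both, 7 in the WT-labelled libraries only, 12 in the KO-labelled libraries only and 16 in neither. Of all tested genes, 6.31% were called in the WT-labelled and 28.6% in the KO-labelled libraries. Their share called in both was not computed. Across members the changes correlated with Pearson's r of 0.86 and Spearman's rho of 0.85, a description over 82 genes that share their libraries. No member differed between the labels in its response at an adjusted p under 0.05 (limma), where 0.875% of all tested genes did. At an unadjusted p under 0.05 there were 2 members, Rps4l and Rps20, and 1915 of 11892 genes overall.

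**Figure D2:**
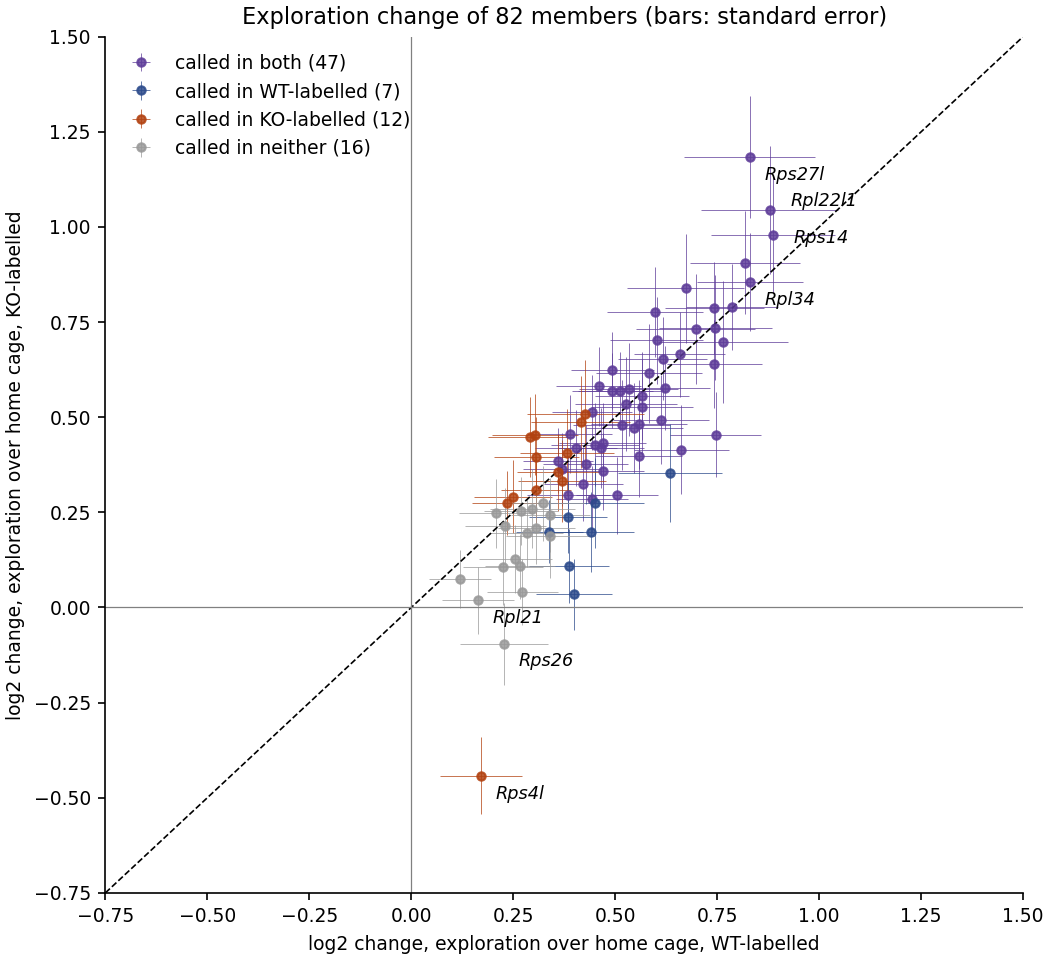
Each point is 1 of 82 members, with its log2 change from home cage to exploration in the WT-labelled libraries on the x axis and in the KO-labelled libraries on the y axis. Bars are standard errors from limma, the dashed line marks equal change, and colours show where the gene was called. Most members lie in the upper right, and Rps4l stands alone below 0 on the y axis among called members.

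Rps14, a small-subunit protein of the platform near the decoding region, had the largest rise of any member that is not a paralog. Its home cage levels were 327.5 and 360.88 FPKM in the WT-labelled and 479.94 and 343.76 FPKM in the KO-labelled libraries. After exploration they were 672.03, 616.2 and 621.99 FPKM in the WT-labelled and 976.59, 738.1 and 715.31 FPKM in the KO-labelled libraries. All 6 exploration values lay above all 4 home cage values. The averaged log2 change of Rps14 was 0.93 ± 0.11 (SE, adjusted p = 0.000242).

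Rps21, a short protein of the small subunit, followed the same course. Its 4 home cage values were 222.69 to 311.95 FPKM and its 6 exploration values 420.83 to 567.02 FPKM, with a wide gap between them. Its averaged log2 change was 0.86 ± 0.10 (SE, adjusted p = 0.000189). Rps18, a protein of the small-subunit head, lay at 156, 157.18, 184.53 and 155.62 FPKM in the home cage and at 256.09 to 343.42 FPKM after exploration. Its averaged change was 0.79 ± 0.08 (SE, adjusted p = 0.000107). The call for Rps18 held in both labelled genotypes under every library left out.

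Among large-subunit proteins, Rpl34 rose most outside the paralogs. It was at 171.32, 153.18, 211.69 and 163.76 FPKM in the home cage libraries and at 279.51 to 393.11 FPKM in the exploration libraries, with no overlap. The averaged change was 0.84 ± 0.09 (SE, adjusted p = 0.000163). As groups, 30 of 33 small-subunit genes and 46 of 49 large-subunit genes rose, with medians of 0.45 and 0.40. The stalk is counted here with the large subunit, and the paralogs with the subunit of their name.

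The 3 stalk proteins, which contact the translational GTPases, rose together. Rplp0, the stalk's base, went from 106.15 to 137.24 FPKM in the home cage to 153.77 to 200.33 FPKM after exploration, a log2 change of 0.56 ± 0.07 (SE, adjusted p = 0.000452). Rplp1 lay at 513.04, 487.83, 707.81 and 547.78 FPKM in the home cage libraries and at 818.22 to 1089.16 FPKM after exploration. Rplp2 lay at 237.09 to 330.05 and at 409.41 to 506.36 FPKM. The changes of Rplp1 and Rplp2 were 0.69 ± 0.08 and 0.69 ± 0.08 (SE, adjusted p = 0.000292 and 0.000321). In all 3 the environments did not overlap.

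Rpsa, a small-subunit protein also known as the laminin receptor, ran from 163.87 to 220.23 FPKM in home cage libraries and from 224.96 to 309.78 FPKM after exploration. Its change was 0.48 ± 0.07 (SE, adjusted p = 0.000855). Rpl41 was at 554.34, 511.18, 746.01 and 585.92 FPKM and at 779.71 to 982.5 FPKM, also without overlap, with a change of 0.49 ± 0.09 (SE, adjusted p = 0.00277). Rps6, the substrate of the S6 kinases, moved less. Its home cage levels were 203.38, 215.12, 266.89 and 219.36 FPKM, and its exploration levels 275.37, 259.19 and 243.4 FPKM in the WT-labelled and 297.63, 270.22 and 272.85 FPKM in the KO-labelled libraries. KO-labelled home cage library 1 overlapped the exploration range. The averaged change of Rps6 was 0.26 ± 0.07 (SE, adjusted p = 0.0145), and neither labelled genotype alone passed the threshold (adjusted p = 0.0789 and 0.118).

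Members not called in the averaged comparison included Rps4l, with a log2 change of -0.14, Rps26 (0.07), Rpl21 (0.09), Rpl4 (0.10) and Rps28 (0.16), with adjusted p between 0.0713 and 0.526 (limma). Rps26, which contacts the mRNA at the exit site, was at 380.06, 352.02, 543.29 and 425.47 FPKM in the home cage and at 423.81 to 496.35 FPKM after exploration. The high home cage value came from KO-labelled library 1. Rpl4, whose long loop lines the peptide exit tunnel, was at 270.51 to 312.55 FPKM and at 284.01 to 332.87 FPKM.

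A separate fit asked which members moved relative to the family, by centring each library on the members' median. This choice was made after the values were seen, and it removes the high level of KO-labelled library 1 in each environment. From home cage to exploration, 28 of 82 members were higher and 10 lower against the family median at a limma adjusted p under 0.05. Centring on members moves all other genes, and 82.2% of all tested genes were then called. That share is no yardstick for the members, and with so many calls the adjustment changes p little, so these 38 calls are close to unadjusted ones. Of these 38 calls, 27 held with each library left out in turn, 19 higher and 8 lower. The largest relative rises were Rps27l at 0.62, Rpl22l1 at 0.58, Rps14 at 0.55, Rps21 at 0.48 and Rpl34 at 0.46 (log2). The largest relative falls were Rps4l at -0.52, Rps26 at -0.32, Rpl21 at -0.29 and Rpl4 at -0.28. Rps28, Rps3a1 and Rpl27 were also among the 8 falls that held. A member's change correlated with the log of its transcript length with r = -0.33 and with its log mean level with r = 0.15, both descriptions across 82 genes.

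**Figure D3:**
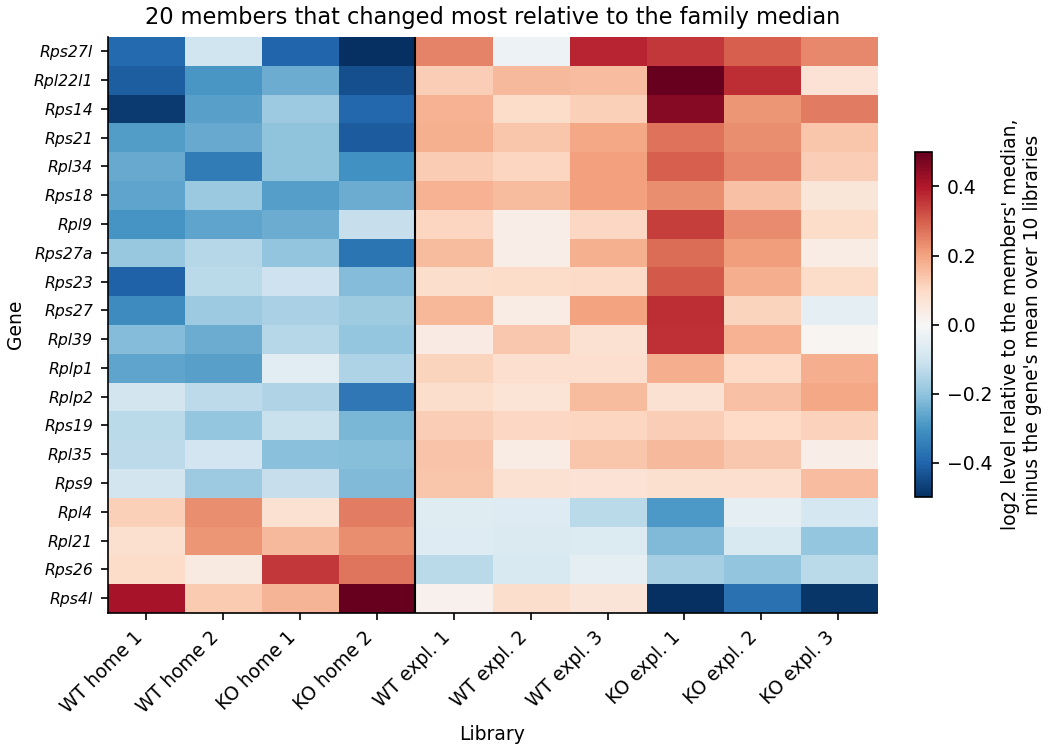
Rows are the 20 members called, close to unadjusted, with a change of at least 0.25 (log2) relative to the members' median, ordered by relative change, and columns are the 10 libraries. Colour gives log2(FPKM + 1) relative to the library's members' median, minus the gene's mean over libraries, and is capped at 0.5 in both directions. The line parts home cage from exploration libraries; Rps27l, at the top, had a relative change of 0.62 and Rps4l, at the bottom, of -0.52, with its lowest values in the KO-labelled exploration libraries.

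Both ends of this order were held by paralogs. Such copies can replace their parent protein in the ribosome, and several are confined to certain tissues. Rpl3l, known from muscle, Rpl39l, known from testis, and Rpl32l were at or near 0. The 5 others were tested. They may share reads with their parents, and how the authors assigned such reads is not given in the sources used here. Over the longest open reading frame, Rps27l was identical to Rps27 at 76.1% of bases, Rpl22l1 to Rpl22 at 67.7%, Rpl36al to Rpl36a at 87.9% and Rpl7l1 to Rpl7 at 55.4%. No identity was computed for Rps4l.

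Rpl22l1 (chr3:28805508-28807424), whose level Rpl22 is known to restrain, was more abundant than its parent in every library. It was at 75.05 and 78.14 FPKM in the WT-labelled and 100.41 and 72.79 FPKM in the KO-labelled home cage libraries. After exploration it was at 142.55, 142.43 and 140.09 FPKM and at 223.82, 179.94 and 138.43 FPKM. Its averaged log2 change was 0.96 ± 0.12 (SE, adjusted p = 0.000376). Rpl22 (chr4:152324436-152334082) ran from 29.92 to 39.92 FPKM in home cage libraries and from 40.58 to 51.29 FPKM after exploration, a change of 0.35 ± 0.08 (SE, adjusted p = 0.00601). Rpl22l1 thus stood at 210% to 252% of Rpl22 in the home cage and at 334% to 436% after exploration, a ratio 1.53-fold higher with no overlap. In an exact two-sided permutation test within genotype labels over 100 regroupings, p was 0.01, the smallest it can give. Adjusted over 10 such tests (5 pairs by environment and by label) it was 0.1.

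Rps27l (chr9:66944624-66949522), a paralog of Rps27 that p53 induces, had the largest averaged rise of any member. It was at 12.82, 15.16, 15.41 and 10.68 FPKM in the home cage and at 27.06, 21.58, 28.57, 35.03, 29.84 and 27 FPKM after exploration. The averaged change was 1.01 ± 0.11 (SE, adjusted p = 0.000207), or 1.18 in the KO-labelled and 0.83 in the WT-labelled libraries. In the WT-labelled libraries Rps27l was not first, as the largest rise of a member there was 0.89. Rps27 (chr3:90212667-90213648) rose by 0.73 ± 0.11 (SE, adjusted p = 0.00124), from 425.98 to 563.7 FPKM in the home cage to 671.05 to 1067.41 FPKM. Rps27l was 2.31% to 3.39% of Rps27 in the home cage and 3.13% to 4.02% after exploration, and these ranges overlapped (exact permutation p = 0.03, adjusted 0.1). Rpl22l1, Rps27l and Rps27 were also the members with the widest spread within groups.

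Rps4l (chr6:148354656-148355596), an autosomal relative of the X-linked Rps4x, was the 1 member that fell. It was at 45.62 and 35.64 FPKM in the WT-labelled and 45.94 and 49.05 FPKM in the KO-labelled home cage libraries. After exploration it was at 45.39, 46.2 and 44.93 FPKM in the WT-labelled but at 36, 36.46 and 31.75 FPKM in the KO-labelled libraries. The 3 KO-labelled exploration libraries were below all others except WT-labelled home cage library 2. The change in the KO-labelled libraries was -0.44 ± 0.10 (SE, adjusted p = 0.00921, and 0.107 without KO-labelled home cage library 2). It was 0.17 ± 0.10 in the WT-labelled libraries (adjusted p = 0.343). The difference between these responses was -0.61 ± 0.14 (SE, adjusted p = 0.0639) and passed the threshold when KO-labelled exploration library 1 was left out (adjusted p = 0.0391).

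As a share of Rps4x, Rps4l was 18.7% to 23.6% in the home cage, 18.2% to 19.8% in the WT-labelled and 12.5% to 13.8% in the KO-labelled exploration libraries. Between labels after exploration, Rps4l differed by -0.38 (log2, adjusted p = 0.0829) and, relative to the family median, by -0.53 ± 0.11 (SE, adjusted p = 0.031, where 1.33% of all genes were called). That call held in 6 of 10 fits with a library left out. Relative to the family, and again with an adjustment that changes p little, Rps4l differed with exploration by -0.82 in the KO-labelled libraries (adjusted p = 0.000128, 62.7% of all genes called) and by -0.21 in the WT-labelled libraries (adjusted p = 0.132, 64.7% called). The difference of these, -0.61, did not pass (adjusted p = 0.128, 0.992% called). Over both environments the exact permutation p for the ratio between labels was 0.05, or 0.125 adjusted.

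The remaining pairs kept closer ratios. Rpl36al was 66.3% to 78.7% of Rpl36a in the home cage and 71.4% to 84.0% after exploration (exact permutation p = 0.14, adjusted 0.214). Rpl36al rose by 0.52 and Rpl36a by 0.41 on the log2 scale. Rpl7l1 was 5.84% to 6.33% and 5.66% to 6.08% of Rpl7 (exact permutation p = 0.15, adjusted 0.214), and these genes rose by 0.23 and 0.28. Rpl3, the parent of the muscle paralog, rose by 0.26 (adjusted p = 0.0104).

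**Figure D4:**
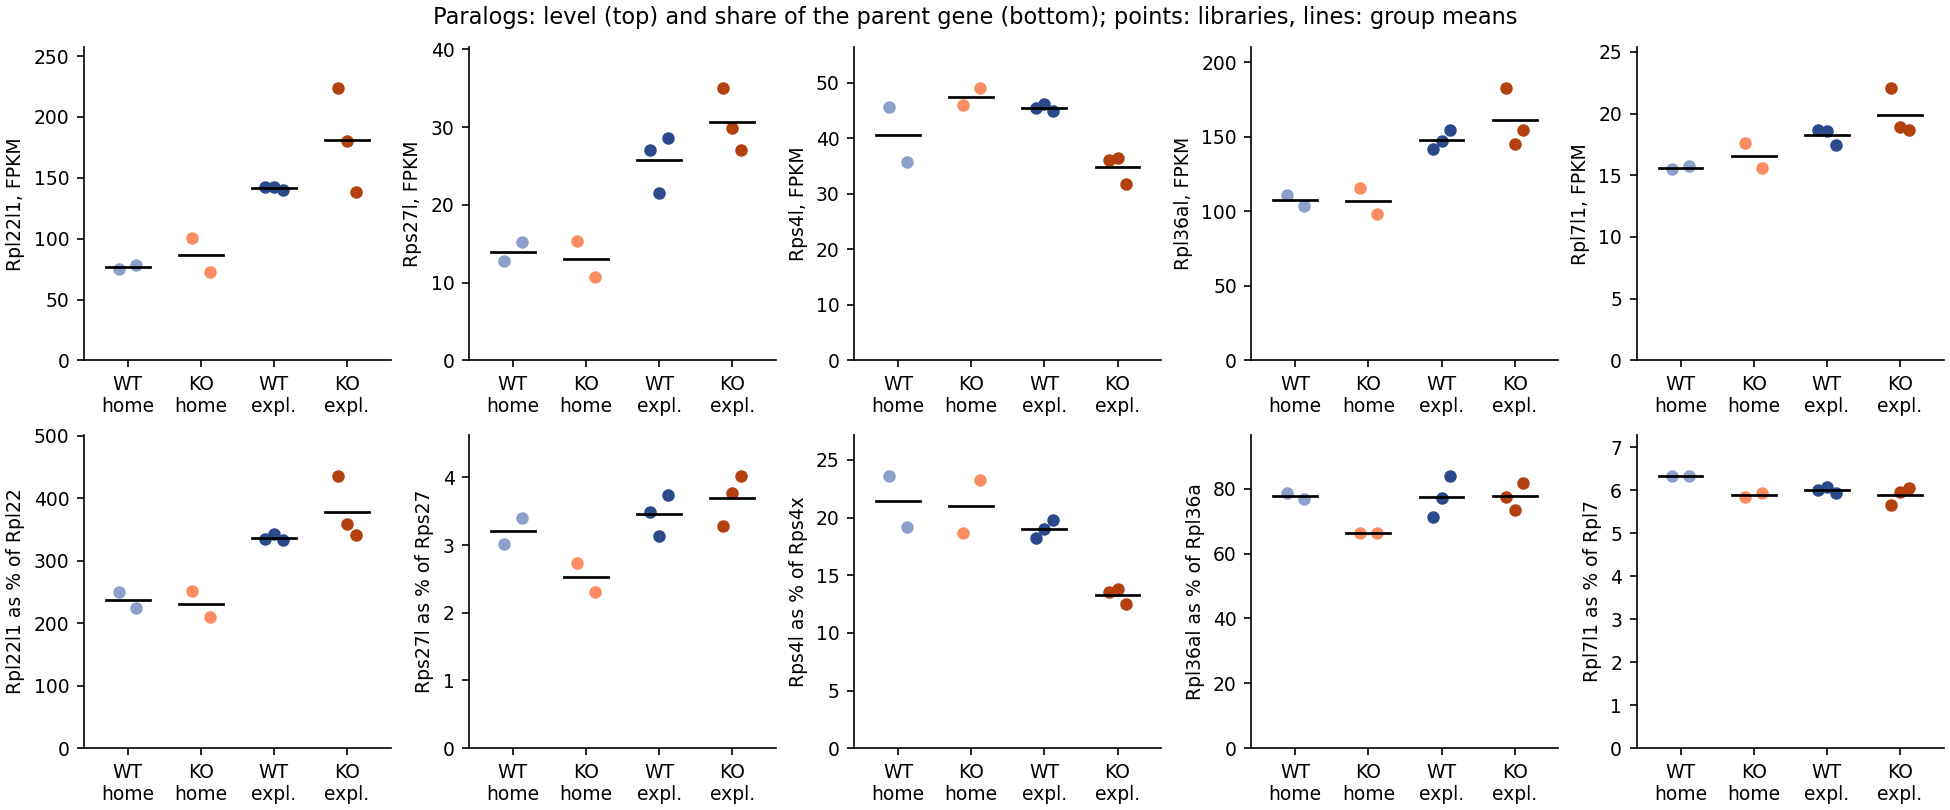
Upper row: FPKM of the 5 tested paralogs in each library, grouped by genotype label and environment. Lower row: the paralog as a percent of its parent gene; points are libraries, black lines group means, and all axes start at 0. Rpl22l1 stands at 334% or more of Rpl22 in every exploration library, and Rps4l stands at 12.5% to 13.8% of Rps4x in the KO-labelled exploration libraries alone.

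Between genotype labels the family leaned one way with almost no calls. In the home cage 79 of 82 members were higher in the KO-labelled libraries, with a median log2 difference of 0.18. Rps20, a small-subunit head protein, was the 1 member called, where 3.57% of all tested genes were called and 2.12% called higher. Rps20 was at 18.31 and 19.14 FPKM in the WT-labelled and 29.13 and 23.34 FPKM in the KO-labelled libraries, a difference of 0.46 ± 0.10 (SE, limma adjusted p = 0.0345). Its call was lost in 7 of 10 fits with a library left out, among them each of the 4 home cage libraries, with adjusted p up to 0.225. Marker sums of other cell types parted the labels in the home cage as well. Astrocyte markers summed to 124 to 135 FPKM in the WT-labelled and 199 to 231 FPKM in the KO-labelled libraries, with 6 of 6 genes not overlapping. Microglia markers summed to 45.5 to 49 and 64.2 to 70.7 FPKM (7 of 7), oligodendrocyte markers to 137 to 164 and 188 to 225 FPKM (5 of 6) and endothelial markers to 20.6 to 21.2 and 26.5 to 31.8 FPKM (3 of 5). The CA1 marker sum was lower in the KO-labelled libraries, at 671 to 735 against 752 to 754 FPKM, with Wfs1 at 127.3 and 64.88 against 218.93 and 192.41 FPKM, although 3 of the 6 CA1 markers lay higher there and 2 lower. No marker of these lists was at 0 throughout, and the part of these cells in the family's difference was not tested. For 37 of 82 members both KO-labelled values lay above both WT-labelled values, against 21.0% of all tested genes. The median difference was 0.02 when KO-labelled library 1 was left out and 0.33 when library 2 was.

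After exploration 76 of 82 members were higher in the KO-labelled libraries, with a median difference of 0.14, and none was called (limma), where 0.597% of all tested genes were. At an unadjusted p under 0.05 there were 8 members, and 2046 genes overall. In 26 members all KO-labelled values lay above all WT-labelled values, against 11.4% of all genes, and in 1, Rps4l, they all lay below, against 13.5%. Averaged over environments, 81 of 82 members were higher, with a median of 0.15, and none was called, where 2.13% of all genes were. At an unadjusted p under 0.05 there were 32 members, and 2399 genes overall. Leaving out KO-labelled library 2 of the home cage gave 9 calls. With both high KO-labelled libraries left out, 48 of 82 members were higher in the home cage (median 0.02), 69 after exploration (median 0.07) and 62 on average (median 0.04). After exploration the astrocyte, microglia, oligodendrocyte and endothelial sums overlapped between the labels, with 1 of 6 astrocyte genes and none of the other 3 lists' genes apart. The summed choroid plexus markers were at 9.42 to 16.6 FPKM in the KO-labelled libraries. They were high in WT-labelled home cage library 1 (235 FPKM) and exploration libraries 1 and 2 (132 and 108 FPKM), mostly from Ttr. In WT-labelled home cage library 2 and exploration library 3 they were at 17.7 and 16.3 FPKM, near the KO-labelled values. None of the 5 choroid plexus markers was at 0 throughout, and their part in the family's difference was not tested.

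In the averaged exploration comparison, counts for other gene lists stand beside the 31.9% called over all tested genes, 12.6% higher and 19.2% lower. Fau, which encodes a ribosomal protein fused to a ubiquitin-like protein, rose by 0.67 (adjusted p = 0.000242), from 230.77 to 303.75 FPKM in the home cage to 386.47 to 445.95 FPKM. Mitochondrial ribosomal protein genes, which serve the separate ribosome of mitochondria, rose in 34 of 76 cases (44.7%) and fell in none, with a median of 0.18. Mrps33 led them with 0.63 (adjusted p = 0.00044), followed by Mrpl18 with 0.37 and Mrpl49 with 0.33. In the same comparison 12 of 40 translation initiation genes rose and none fell, with a median of 0.12. Their share called higher was 30%, against 12.6% of all tested genes. Those with the smallest adjusted p were Eif1b (0.31), Eif3f (0.28) and Eif3h (0.27). Of 17 elongation and termination genes 6 rose (35.3%, against 12.6% of all tested genes) and none fell, with a median of 0.15. They were led by Tpt1, itself encoded by a TOP mRNA, at 0.49, Eef1b2 at 0.49 and Eef1g at 0.27.

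Of 62 ribosome biogenesis genes 12 rose and 8 fell, with a median of 0.04, a called share of 32.3% that was at the background. Mdn1 and Rrp1b, both of large-subunit assembly, fell by 0.54 and 0.54, and Pno1, of small-subunit assembly, rose by 0.37. Mdn1 and Rrp1b were near the 1 FPKM filter, at 1.09 to 1.7 and 1.02 to 1.83 FPKM in the home cage. After exploration they were at 0.44 to 0.83 and 0.57 to 0.76 FPKM. Of 14 RNA polymerase I genes 2 rose and 3 fell (35.7%, near the background), with Polr1d at 0.35 and Taf1c and Polr1b at -0.39 and -0.28. Of 29 tested genes of TOR signalling and TOP mRNA control 4 rose and 10 fell (48.3%), with a median of -0.14. Gabpb1, a subunit of GABP, fell by 0.41, Tia1, an RNA-binding protein that binds TOP mRNAs, by 0.51, and Rictor, of TOR complex 2, by 0.49. In the WT-labelled libraries Rps6kb1, the S6 kinase, fell by 0.36 (adjusted p = 0.0288), as did Tia1 by 0.68 and Gabpb1 by 0.49. In the KO-labelled libraries Mycn, a transcription factor of the Myc family, fell by 1.01 (limma adjusted p = 0.00268). Mycn was low, at 2.66 and 2.74 FPKM in these home cage libraries and 0.7 to 0.92 FPKM after exploration. Its WT-labelled home cage values were 1.36 and 1.26 FPKM. In the KO-labelled libraries Rheb, an activator of TOR complex 1, rose by 0.55 (limma adjusted p = 0.0044) and Rictor fell by 0.52 (adjusted p = 0.0149).

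Transcript length moved with the environment across all genes. Other tested genes under 1000 nt had a median log2 change of 0.22 (753 genes, 44.2% called), those of 1000 nt to under 3000 nt 0.04 (5329 genes) and longer genes -0.12 (5617 genes). Other genes under 1000 nt and at 100 FPKM or more came closer still, with a median of 0.30 over 139 genes, 72.7% of them called. The members' median was 0.42 with 92.7% called, over all 82 tested members. These were not restricted in the same way, as some are longer than 1000 nt or below 100 FPKM. With a smooth trend on transcript length and GC content removed from each library, the members' median was 0.26, and 57 of 82 rose and 2, Rps4l and Rps26, fell, where 26.2% of all genes were called. Under that trend removal Rps27l (0.73), Rps14 (0.70), Rpl22l1 (0.65) and Rplp1 (0.46) remained called, while Rps6 was at 0.07 (adjusted p = 0.361). Marker sums of other cell types also differed between the environments. Interneuron markers summed to 176 to 193 FPKM in the home cage and 211 to 291 FPKM after exploration, with 1 of 7 markers not overlapping. Blood markers summed to 94.9 to 154 and 160 to 308 FPKM, with 2 of 5 not overlapping, and no marker of either list was at 0 throughout. The part of length, block and these cells in the family's change was not tested beyond these values.

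**Figure D5:**
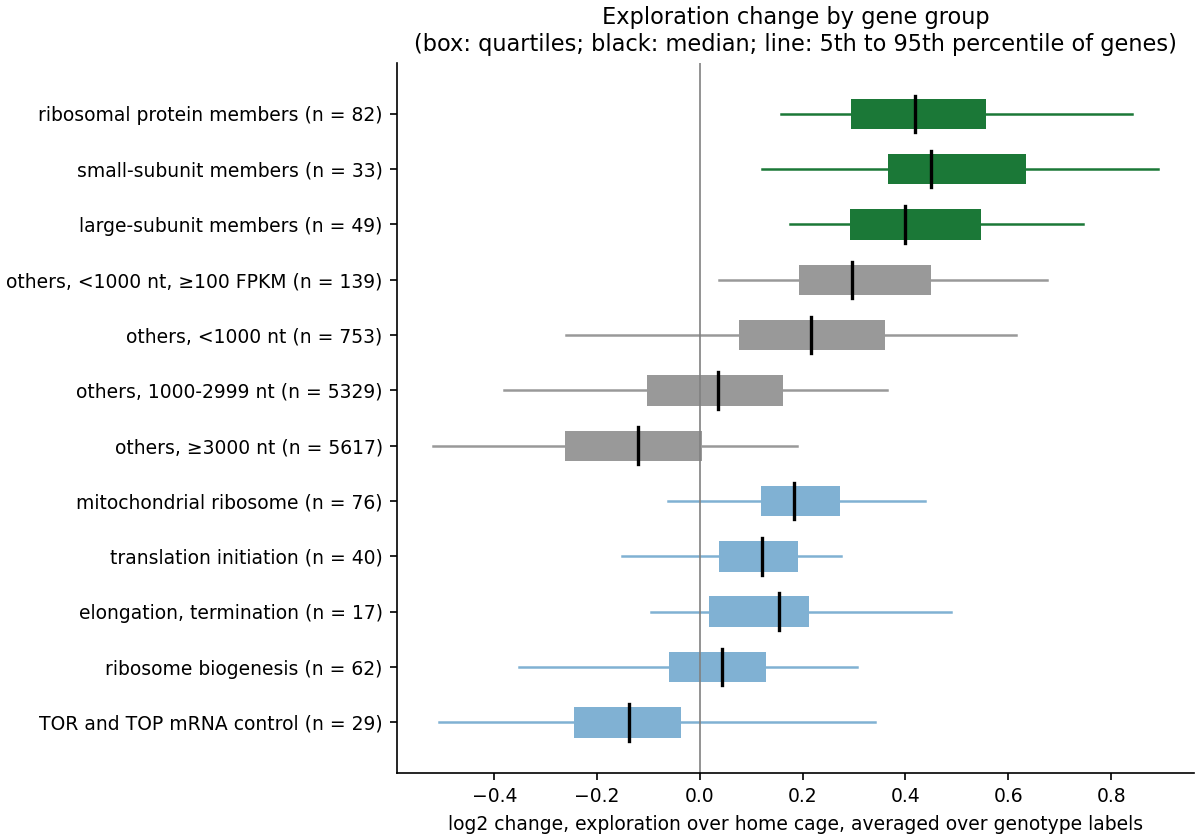
Log2 change from home cage to exploration, averaged over genotype labels, for members (green), other tested genes by transcript length and level (grey) and other gene lists (blue). Boxes give the quartiles over genes, black lines the median and thin lines the 5th to 95th percentile. The members' median of 0.42 lies to the right of that of short abundant genes, at 0.30, and of long genes, at -0.12.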

How the data were processed

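The authors deposited gene-level FPKM for the 10 libraries, in 2 blocks joined here on gene ID. Per the submitters' processing notes the tools were HISAT, StringTie, GATK, Bowtie2 and RSEM and the builds GRCm38 and mm10, and their roles, the use of strand and the handling of reads shared between gene copies are not given in the sources used here. FPKM are not counts, so no count test was run.

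The 11892 genes that reached 1 FPKM in 2 or more libraries were log2-transformed after adding 1 and fitted by limma 3.58.1 (R 4.3.3), with a variance trend and 1 mean per group (6 residual and 5.71 prior degrees of freedom). Fold changes on this scale understate those of low genes. P-values were adjusted over all tested genes by Benjamini-Hochberg and called under 0.05. The script was tested on simulated data. Replicate numbers follow accession order and pair nothing. The labels do not say that libraries come from separate mice, so p-values measure the spread between libraries, which may be technical. Fragment numbers were estimated from steps between low FPKM values. Transcript lengths came from GENCODE and promoters and positions from RefSeq, both on GRCm38.

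Members and lists were chosen with earlier results of these data known. Named were, per comparison, the 3 largest rises and falls among called members, the extremes of level and spread, fixed representatives, paralogs with their parents, and up to 3 called genes of each other list. Rps18, Rps21, Rps26, Rps28, Rps3a1, Rpl4, Rpl21, Rpl27, and Rpl35 and Rps10 for their sequence, fall outside that rule and were named after their values were seen, as were the paralog ratios and the centring on the family. Some items are not reported here. The alternatives are listed with the dependence on processing.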

Additional observations from a re-analysis of the deposited data

How the results depend on the processing

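Counts of called members were recomputed with another pseudocount (0.1), with no filter or 1 of 5 FPKM, with 4 other scalings, without the variance trend, with robust empirical Bayes, with a length and GC trend removed, on the compared groups alone and with each library left out. Leaving out both high KO-labelled libraries together was chosen after seeing the data. The averaged exploration count ran from 59 to 78 over these settings, and from 66 to 78 with 1 library left out. For the WT-labelled libraries it was 12 with no filter and 1 to 64 with 1 library left out, and for the KO-labelled libraries 30 on the compared groups alone and 17 to 72 with 1 library left out. The cause was not tested. The home cage genotype count of 1 became 0 with no filter, 0 without the variance trend, 0 on the compared groups alone and 0 without both high libraries. It became 2 with quantile normalization, 2 on the TPM scale, 2 when scaled without members and noncoding repeats, 3 with the length and GC trend removed, and 0 to 1 with 1 library left out. The averaged genotype count of 0 became 1 with a filter of 5 FPKM, 2 with quantile normalization, 7 with the length and GC trend removed and 0 to 9 with 1 library left out. The exploration genotype count was 0 in every setting. The count of members whose response differed between labels was 2 without both high libraries and 0 to 1 with 1 library left out. The members' median of that difference, -0.03, ran from -0.19 to 0.12 with 1 library left out and was positive (0.12) when KO-labelled library 1 of the home cage was left out. Relative to the family, 30 to 42 members were called for exploration and 0 to 1 for the label after exploration with 1 library left out. No paired analysis was possible because the replicate numbers were given in accession order and tie no library to another. Each tested member stood for an estimated 90.2 fragments or more per library, so low depth limits mainly the 3 untested paralogs.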

Other observations

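Of the pseudogene and retrotransposed copies named after members, 8 were listed, none above 7.81 FPKM. The 4 home cage values of Rps15a-ps4 were 3.24 to 5 FPKM and the 6 exploration values 5.77 to 7.81 FPKM. Rplp2-ps1 was at 3.07 to 7.02 FPKM and Rpl14-ps1 at 1.32 to 5.41 FPKM over all 10. How reads shared with the parent genes were assigned is not given in the sources used here.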
